A study of Mus musculus with 7 samples.

Results

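Amino acids enter and leave muscle fibres through membrane carriers of the solute carrier (SLC) families, and asparagine is made inside the cell by asparagine synthetase. The genes described here are 8 of these carriers, Slc7a5, Slc3a2, Slc7a1, Slc7a7, Slc7a8, Slc38a1, Slc38a2 and Slc1a5, and the synthetase gene Asns. They were taken by name: every probe set of the array whose platform annotation gives exactly 1 gene symbol, that symbol being one of the 9. The 9 are among 12393 genes named in this way, and they have 10 of the 22626 probe sets tested, 2 for Asns and 1 for each of the 8 carriers. The samples were 7 one-colour Affymetrix arrays of soleus, a postural muscle of the hindlimb: 4 from mice labelled knockout for Yin Yang 1 (YY1), a zinc finger transcription factor, and 3 from mice labelled wild type. All mice were 6 months old and of mixed C57Bl/6 and 129 background. The labels do not state which part of Yy1 was removed, by what means or in which cells.

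The targeted gene was lower where the labels say so. Of the 4 Yy1 probe sets, 3 were lower in knockout, by log2 fold changes of -1.70, -1.02 and -0.77 (limma adjusted p = 0.00012 to 0.00629). The dimmest measured -0.060 (adjusted p = 0.711). The labels do not state whether any of these probes lies in the removed part, so this checks the direction of the labels and not the extent of the deletion. Array medians lay between 139.1 and 143.2 intensity units. Log2 values of arrays of one genotype correlated at 0.9955 or above over all probe sets, and those of different genotypes at 0.9800 to 0.9889.

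As background, Slc7a5 encodes LAT1, a light chain that exchanges large neutral amino acids such as leucine for glutamine. It works only when bound to the heavy chain 4F2hc (CD98), the product of Slc3a2, which also carries the light chains of Slc7a7 (y+LAT1) and Slc7a8 (LAT2). Slc7a1 encodes the cationic amino acid transporter CAT1, Slc38a1 and Slc38a2 the sodium-coupled neutral amino acid transporters SNAT1 and SNAT2, and Slc1a5 the neutral amino acid exchanger ASCT2. When amino acids run short or the endoplasmic reticulum is stressed, the transcription factor ATF4 is translated and is known to raise Asns, Slc7a5, Slc3a2 and Slc38a2 in many cell types. Leucine carried by LAT1 is one of the signals read by the growth kinase complex mTORC1.

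Transcripts of asparagine synthetase, of the LAT1 light chain and of its heavy chain were higher in the knockout soleus. Asns rose 2.87-fold, Slc7a5 2.16-fold and Slc3a2 1.23-fold, and Slc38a1 lay just outside the threshold at 1.52-fold. The other 5 carriers did not pass the test. In all, 4 of the 10 probe sets were called higher and 0 lower at limma's adjusted p under 0.05 (5 higher and 0 lower at an unadjusted p under 0.05), while 28.6% of all probe sets were called in either direction and 14.3% were called higher. The 4 include both probe sets of Asns. Counted by gene, with the brightest probe set of each, 3 of the 9 were called, all higher. Of all genes, 31.8% were called in this way in either direction and 16.3% higher. The groups did not overlap in 5 of the 10, all higher in knockout. Over all probe sets the groups did not overlap in 36.4%, and they did so with knockout higher in 18.4%. The median log2 fold change was 0.33 over the 10 probe sets and 0.0069 over all probe sets.

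**Figure D1:**
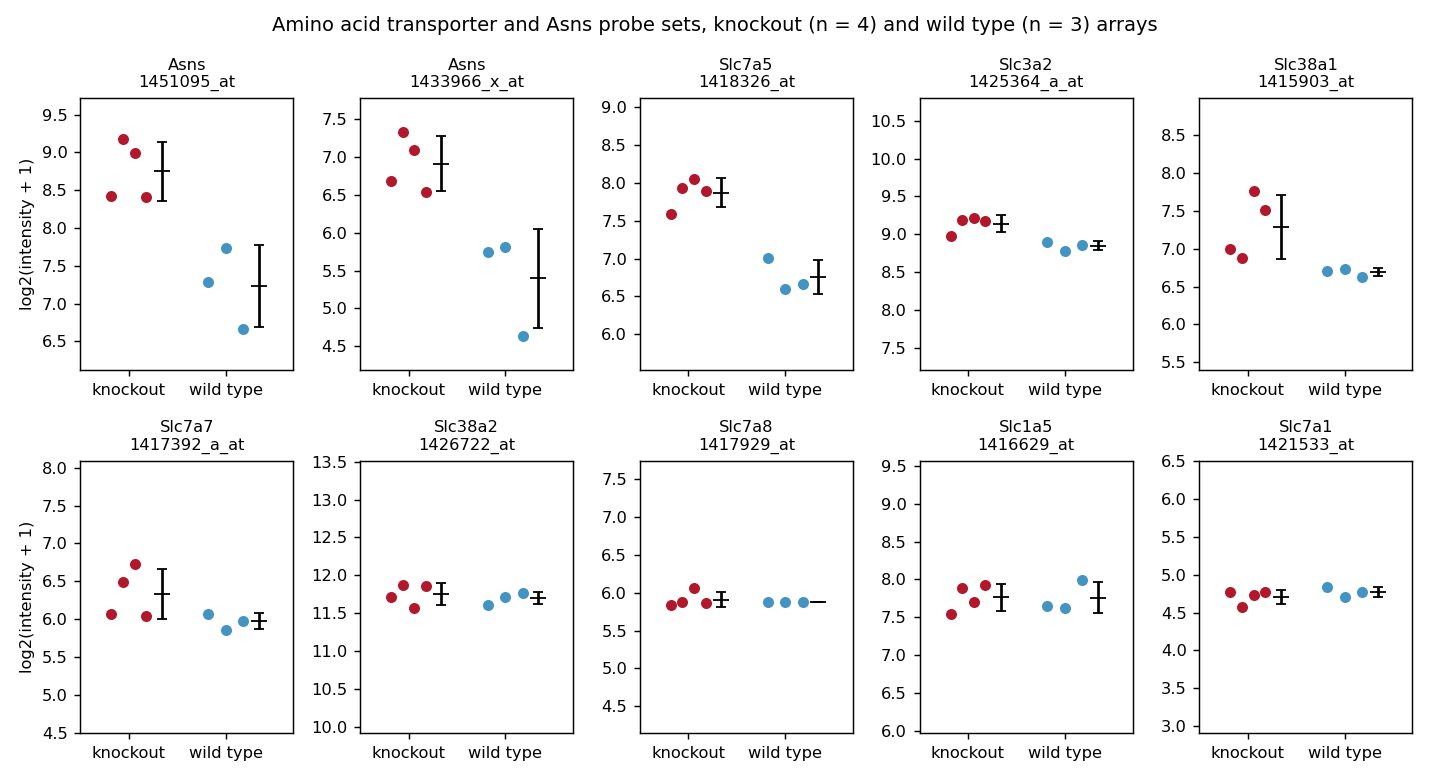
Log2(intensity + 1) of each of the 10 probe sets on every knockout array (red, left) and wild type array (blue, right), with the mean and SD of each group in black; every panel spans the same height. Knockout lies above wild type with no overlap in both Asns panels and in Slc7a5, Slc3a2 and Slc38a1.

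Asns encodes the enzyme that makes asparagine from aspartate and glutamine. Its brighter probe set (1451095_at) measured 344, 577, 509 and 338 intensity units on knockout arrays 1 to 4, against 155, 213 and 100.4 on wild type arrays 1 to 3. Every knockout array was above every wild type array, and wild type array 3 was the lowest. On the log2(intensity + 1) scale the means were 8.75 ± 0.39 in knockout (SD, n = 4) and 7.23 ± 0.54 in wild type (SD, n = 3). The log2 fold change of this probe set was 1.52 with an SE of 0.27 (limma adjusted p = 0.00378). Without wild type array 3 it was 1.24 (adjusted p = 0.0149).

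The second Asns probe set (1433966_x_at) belongs to a class whose probes may also match other sequences. It measured 102, 160, 136 and 91.8 units in knockout, against 52.6, 55.1 and 23.8 in wild type. The order of the arrays was nearly that of the first probe set, with knockout arrays 2 and 3 high and wild type array 3 low, and the log2 values of both probe sets had a Pearson r of 0.986 over the 7 arrays, which share RNA and normalization. Its log2 fold change was 1.52 (SE 0.30, adjusted p = 0.00612). Of all probe sets, 0.552% were called with a log2 fold change at least as high.

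The promoter of Asns is well known for a short element through which ATF4 acts, and the element's core, TGATGNAA, was therefore looked for on both strands of the promoter windows of the 9 genes. Windows ran from 250 bases before to 50 after an annotated start in RefSeq (build GRCm38.p6). Windows were at hand for 6 of the genes, 11 windows in all: Asns, Slc3a2, Slc7a1, Slc7a7, Slc7a8 and Slc38a2. Those of Slc7a5, Slc38a1 and Slc1a5 were not analysed here. The core was found in 2 of the 6 genes, Asns and Slc7a7, and in 4.51% of all 27025 genes with a window. In Asns it stood at bases -23 to -16 before the start, on the strand of the gene. In Slc7a7 it was in 2 of 5 windows, and the window shown holds it at bases -141 to -134 and again across the start from -1 to 7. These 2 windows overlap, and the only match of the other is this same site across the start. Slc3a2 is shown because its transcript rose and its window holds no match. Capitals mark the matches, and all 3 windows are on the minus strand, at chr6:7693160-7693459 for Asns, chr19:8713848-8714147 for Slc3a2 and chr14:54417895-54418194 for Slc7a7.
Asns: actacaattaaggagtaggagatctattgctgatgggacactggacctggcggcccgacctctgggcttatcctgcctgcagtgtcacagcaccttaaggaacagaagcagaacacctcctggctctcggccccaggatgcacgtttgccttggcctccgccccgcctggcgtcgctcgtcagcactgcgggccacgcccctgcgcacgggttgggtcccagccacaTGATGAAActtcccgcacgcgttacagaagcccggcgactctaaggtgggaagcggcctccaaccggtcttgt
Slc3a2: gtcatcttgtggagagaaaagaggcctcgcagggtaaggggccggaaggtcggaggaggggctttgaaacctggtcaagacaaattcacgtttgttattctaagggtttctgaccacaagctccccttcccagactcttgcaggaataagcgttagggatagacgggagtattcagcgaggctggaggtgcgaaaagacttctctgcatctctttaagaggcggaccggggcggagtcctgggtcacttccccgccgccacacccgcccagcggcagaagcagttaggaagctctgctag
Slc7a7: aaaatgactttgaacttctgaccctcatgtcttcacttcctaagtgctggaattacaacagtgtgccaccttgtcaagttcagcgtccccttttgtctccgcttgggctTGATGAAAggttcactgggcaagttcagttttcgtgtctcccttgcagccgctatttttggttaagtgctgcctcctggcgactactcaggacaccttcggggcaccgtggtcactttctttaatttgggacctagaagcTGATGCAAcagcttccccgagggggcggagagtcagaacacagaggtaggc
A match is a run of letters and was not tested for binding, and the lack of one covers only these 300 bases.

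Slc7a5, the LAT1 light chain, had the smallest adjusted p of the 10 probe sets. Its probe set (1418326_at) measured 192, 244, 264 and 237 intensity units on knockout arrays 1 to 4, against 128, 96.0 and 100.3 on the wild type arrays. The lowest knockout array lay well above the highest wild type array. The log2 means were 7.87 ± 0.19 in knockout (SD, n = 4) and 6.76 ± 0.22 in wild type (SD, n = 3). Its log2 fold change was 1.11 (SE 0.13, 95% interval 0.82 to 1.41, adjusted p = 0.000486).

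Slc3a2, the heavy chain that brings LAT1 to the cell surface, moved the same way by a smaller amount. Its probe set (1425364_a_at) measured 504, 580.1, 595 and 580 units in knockout, against 476, 440.0 and 463 in wild type. Knockout arrays 2 to 4 lay close together and array 1 lay between them and wild type. The log2 fold change was 0.29 (SE 0.07, 95% interval 0.13 to 0.46, adjusted p = 0.0153), and its interval lies below that of Slc7a5. Without wild type array 2 the call was lost (0.26, adjusted p = 0.0628).

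Slc38a1, of the glutamine carrier SNAT1, was uneven among the knockout arrays. Its probe set (1415903_at) measured 127, 117, 216 and 182 units in knockout, against 103, 105 and 97.9 in wild type. The groups did not overlap, but arrays 1 and 2 of the knockout were near wild type while 3 and 4 were high. The change of 0.60 log2 units (SE 0.20, 95% interval 0.15 to 1.05) had an adjusted p of 0.0533. Leaving out single arrays gave adjusted p = 0.0242 to 0.152, so its side of the threshold depends on which arrays are used.

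Slc7a7, of the y+LAT1 light chain known in macrophages, kidney and gut, did not pass the test. Its probe set (1417392_a_at) measured 66.3, 88.7, 105 and 65.0 units in knockout, against 66.3, 57.1 and 62.0 in wild type. Knockout arrays 2 and 3 were above every wild type array and arrays 1 and 4 were within their range or at its upper end. The log2 fold change was 0.36 (SE 0.16, 95% interval -0.012 to 0.74, adjusted p = 0.138).

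The sodium-coupled carrier Slc38a2 (SNAT2) had the brightest probe set of the 10 and did not pass the test. The probe set (1426722_at) measured 3349, 3740.2, 3022 and 3721 units in knockout, against 3124, 3349 and 3485 in wild type. The groups overlapped, and the interval of the log2 fold change (0.055, SE 0.09) ran from -0.14 to 0.25 (adjusted p = 0.676). An increase as large as that of Slc7a5 lies outside this interval.

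Slc1a5, of the glutamine exchanger ASCT2 (1416629_at), measured 186, 236, 206 and 242 units in knockout, against 200.1, 196 and 254 in wild type. The groups overlapped, with knockout array 1 the lowest of the 7 and wild type array 3 the highest, and a log2 difference of 0.0068 (SE 0.12, 95% interval -0.27 to 0.28, adjusted p = 0.974). Slc7a8, of the LAT2 light chain (1417929_at), measured 56.2, 57.9, 65.7 and 57.4 units in knockout, against 57.9 on all 3 wild type arrays. These wild type values were equal in every digit given, as happened in 267 of the 22626 probe sets, so the wild type spread of Slc7a8 is 0 by the form of the deposited values and its SE rests on the knockout arrays and on the variance prior. The log2 fold change was 0.031 (SE 0.07, 95% interval -0.12 to 0.18, adjusted p = 0.757).

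Slc7a1, of the arginine and lysine carrier CAT1, had the dimmest probe set, with 13.7% of all probe sets dimmer still. It (1421533_at) measured 26.3, 22.8, 25.5 and 26.3 units in knockout, against 27.7, 25.2 and 26.3 in wild type, and the groups overlapped (log2 fold change -0.065, SE 0.07, 95% interval -0.22 to 0.090, adjusted p = 0.519). No detection call was used, so a value this low may hold little of the transcript's own signal. The dimmer Asns probe set, Slc7a7, Slc7a8 and Slc38a1 also lay below the median level of all probe sets.

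**Figure D2:**
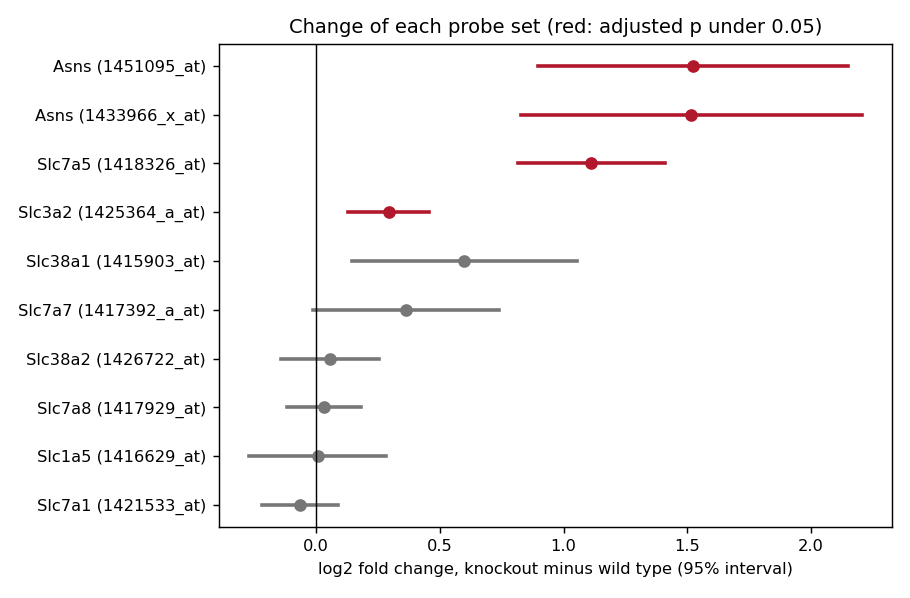
Log2 fold change, knockout minus wild type, of each of the 10 probe sets (point) with its 95% interval from limma (line); red marks an adjusted p under 0.05. Both Asns probe sets stand at 1.52 and Slc7a5 at 1.11, while Slc38a2, Slc7a8, Slc1a5 and Slc7a1 lie between -0.065 and 0.055.

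The relatives of these carriers were described by lists, with each gene read from its probe set of highest mean. By that reading 31.8% of all genes were called, 16.3% higher and 15.5% lower, and the median log2 fold change was 0.013. None of the 10 measured other genes of the SLC3 and SLC7 families passed limma's test by this reading (adjusted p under 0.05; 1 had an unadjusted p under 0.05; median 0.024). The smallest p among them belonged to Slc3a1, the heavy chain of kidney and gut, at -0.22 (SE 0.08, adjusted p = 0.0747; called without wild type array 3, at -0.30 with adjusted p = 0.0216), followed by Slc7a4, an orphan of the cationic branch, at 0.11 (SE 0.09, adjusted p = 0.445). A dimmer probe set was called higher for Slc7a4 (0.22) and for Slc7a6, of the light chain y+LAT2 (0.32).

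The other SLC38 and SLC1 genes went both ways, with 2 of 9 higher and 4 lower (median 0.12). Slc38a3, of the glutamine carrier SNAT3, measured 1160, 899.9, 1014 and 987 units in knockout, against 1719, 1823 and 1710 in wild type. It was lower on every knockout array, at -0.79 log2 units (SE 0.09, adjusted p = 0.000342). Slc38a10 changed by -0.77 (SE 0.09, adjusted p = 0.000606), with its 6 other probe sets between -0.75 and 0.05. Slc1a1, of the glutamate carrier EAAC1, changed by -1.68 (SE 0.26, adjusted p = 0.00198), while its dimmer probe sets gave -0.36 and 0.07. Slc38a4, of SNAT4 and named after its values were seen, changed by -0.56 (SE 0.10, adjusted p = 0.00284). Higher in knockout were Slc1a2, of the glutamate carrier GLT1, at 0.65 (SE 0.08, adjusted p = 0.000594), and Slc1a4, of the serine and alanine carrier ASCT1, at 0.89 (SE 0.22, adjusted p = 0.0171). The other probe sets of Slc1a4 measured 0.15 and 0.01. Its call did not survive leaving out wild type array 2 (adjusted p = 0.0777) or 3 (0.0706) or the second knockout array (0.0511).

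A list of SLC6, SLC16, SLC36 and SLC43 genes had 10 that were measured. They were SLC6 genes and Slc43a3, with no gene of SLC16 or SLC36. Read by brightest probe set, 2 of these 10 were lower and none higher by limma (1 higher at an unadjusted p under 0.05, median 0.030). These were Slc43a3, now known as a purine base carrier, at -0.46 (SE 0.07, adjusted p = 0.00208) and the taurine carrier Slc6a6 at -0.35 (SE 0.09, adjusted p = 0.0148). The call of Slc6a6 was not kept when wild type array 1 (adjusted p = 0.0556) or 3 (0.061) was left out, and the 2 further probe sets measured -0.05 and -0.14. A dimmer probe set of Slc6a14 was called higher (0.27). Among all 29 measured carriers outside the 9 genes, 2 were thus higher and 6 lower by their brightest probe sets.

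Enzymes that use the same amino acids as asparagine synthetase also went both ways. Of 19 measured, 3 were higher and 6 lower (median -0.040). Nars, which charges its transfer RNA with asparagine, measured 3664, 4012, 3839 and 3559 units in knockout, against 2447, 2549 and 2465 in wild type, a rise of 0.60 (SE 0.06, adjusted p = 0.000241) with every knockout array above wild type. Ctps, the glutamine-using CTP synthase, rose by 0.93 (SE 0.07, adjusted p = 8.6e-05), and Gfpt1, which opens the hexosamine pathway with glutamine, by 0.26 (SE 0.08, adjusted p = 0.0407). The call of Gfpt1 was lost when any array but knockout arrays 2 and 4 was left out (adjusted p = 0.0587 to 0.136), and its other probe set measured 0.04.

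Lower enzymes included aminotransferases of aspartate and alanine. The cytosolic aspartate aminotransferase Got1 changed by -0.61 (SE 0.08, adjusted p = 0.000638) and alanine aminotransferase Gpt by -0.88 (SE 0.07, adjusted p = 0.000115). The mitochondrial aspartate aminotransferase Got2, named after its values were seen, was not called, at 0.10 (adjusted p = 0.187). Adsl, adenylosuccinate lyase of the purine nucleotide cycle, changed by -0.74 (SE 0.06, adjusted p = 0.000149). Asrgl1 and the mitochondrial Gpt2 were also named after their values were seen. Asrgl1, whose product breaks asparagine down, changed by -0.45 (SE 0.08, adjusted p = 0.00353), with -0.68 and -0.74 by its dimmer probe sets. Gpt2 changed by -1.01 (SE 0.23, adjusted p = 0.0108). With wild type array 2 left out, Gpt2 was no longer called (adjusted p = 0.054).

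Of 28 measured genes of the ATF4 pathway and the amino acid response outside the 9, 8 were higher and 2 lower (median 0.13). Eif4ebp1 and Shmt2 were not called by their brightest probe sets, but a dimmer one was called higher for Eif4ebp1 (0.46) and lower for Shmt2. Mthfd2, of mitochondrial folate metabolism, measured 704, 671, 679 and 508 units in knockout, against 220.4, 239 and 229 in wild type. The groups were far apart, at 1.47 log2 units (SE 0.11, adjusted p = 9.19e-05), and a second probe set gave 2.09. Aldh18a1, which starts proline synthesis, rose by 0.97 (SE 0.14, adjusted p = 0.00153; the 4 dimmer probe sets gave 0.06 to 0.41), and Ppp1r15a, a phosphatase subunit that reverses the block on translation, by 0.32 (SE 0.05, adjusted p = 0.00295).

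The lowered genes of this list were Chac1 and Cth, and the part of ATF4 in any of these changes was not tested. Chac1, which breaks down glutathione, measured 248, 187, 233 and 307 units in knockout, against 647, 508 and 709 in wild type (log2 fold change -1.36, SE 0.17, adjusted p = 0.000665). Cth, of cystathionine gamma-lyase, changed by -2.42 (SE 0.28, adjusted p = 0.000478). Of 4 genes named after their values were seen, Trib3 rose by 0.70 (SE 0.12, adjusted p = 0.003), Psat1, of serine synthesis, by 0.56 (SE 0.10, adjusted p = 0.00404; 0.17 and not called by a dimmer probe set) and Ddit3, of the stress factor CHOP, by 0.49 (SE 0.12, adjusted p = 0.0166). With wild type array 2 left out, Ddit3 was no longer called (adjusted p = 0.0604). The transcript of Atf4 itself measured -0.085 (SE 0.06, adjusted p = 0.341), with -0.36 and -0.20 by the dimmer probe sets, and the protein, which is set mainly by translation, was not measured.

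**Figure D3:**
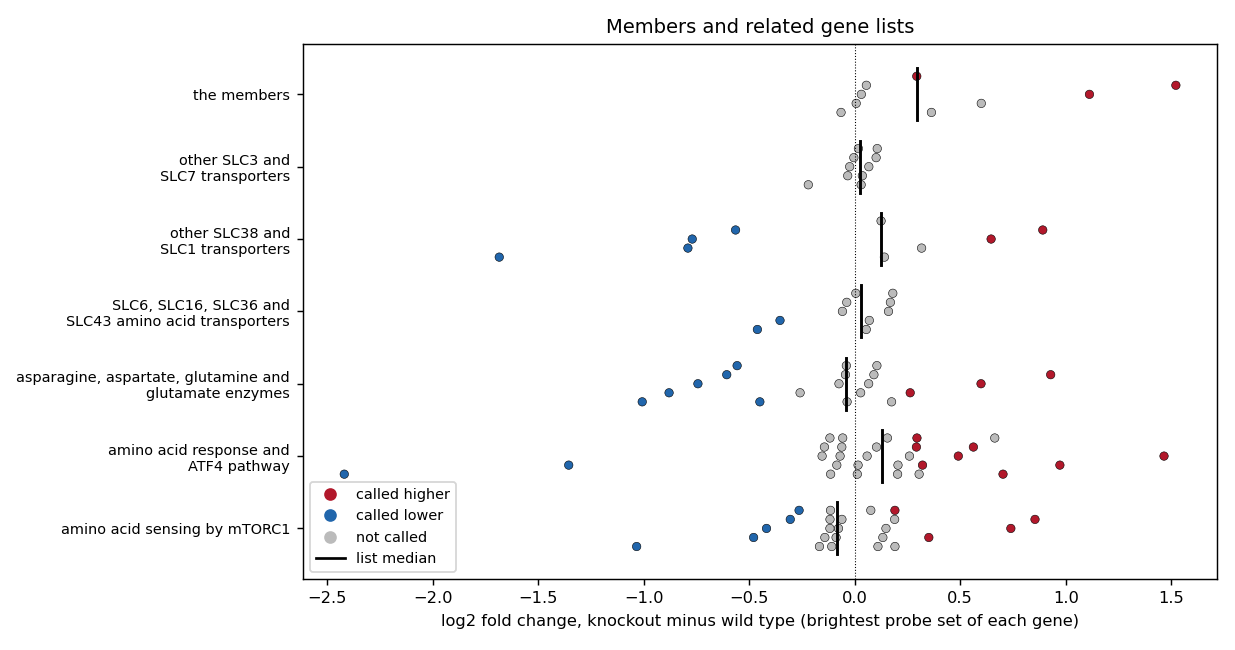
Log2 fold change, knockout minus wild type, of every measured gene (point, brightest probe set) in the 9 genes (top row) and in 6 related lists; red is higher, blue is lower and grey is not called at an adjusted p under 0.05, and black bars are list medians. The 9 genes and the list of other SLC3 and SLC7 genes hold no blue point. The other 5 lists hold blue points, and 4 of them hold both colours. Of all genes, 15.5% were called lower by this reading.

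Genes through which mTORC1 senses amino acids were called in 9 of 24 cases, 4 higher and 5 lower (median -0.083). The sestrins Sesn1 and Sesn3, stress proteins of the family that reads leucine, rose by 0.85 (SE 0.11, adjusted p = 0.000946) and 0.74 (SE 0.09, adjusted p = 0.000537). Rragc, a GTPase that brings mTORC1 to the lysosome, rose by 0.35 (SE 0.06, adjusted p = 0.00291). Castor2, of the arginine sensor family, changed by -1.03 (SE 0.09, adjusted p = 0.00017), the mTOR partner Mlst8 by -0.48 (SE 0.10, adjusted p = 0.00758) and Nprl2, a subunit of the GATOR complex that restrains mTORC1, by -0.31 (SE 0.07, adjusted p = 0.0111). Dimmer probe sets of Castor2 (-0.27) and Mlst8 (-0.09) were not called. Lamtor1 and Seh1l were not called by their brightest probe sets, but 1 dimmer probe set of Lamtor1 was called lower and 2 of Seh1l higher. Activity of mTORC1 was not measured.

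Muscle fibre markers were at the top of the scale in both genotypes. The lowest group mean of the 12 fibre markers was 14.2 log2 units (Des in wild type), and 4 of the 12 were higher and 5 lower. Markers of other cells moved with genotype and are given here because these cells also use amino acid carriers. In these whole muscles, more cells of a type and more RNA per cell cannot be told apart. All 12 macrophage markers were higher in knockout, with summed intensities of 8006, 9885, 13452 and 8732 on knockout arrays 1 to 4, against 3758 to 4559 in wild type, led by Cd68 at 2.05 (SE 0.13, adjusted p = 5.68e-05). With single arrays left out, 8 to 11 of these 12 markers were called. Knockout array 3 had the highest macrophage sum and also the highest Slc7a7, Slc7a8, Slc38a1, Slc7a5 and Slc3a2 values of the 4 knockout arrays. On the same array Slc38a2 was the lowest of the 4, Slc1a5 was below arrays 2 and 4, and both Asns probe sets were below array 2, which was their highest. The fibroblast and endothelial sums were also highest on knockout array 3. The part of macrophages in these values was not tested.

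All 10 endothelial markers were lower, with sums of 2936 to 3221 in knockout, against 5949 to 6272 in wild type, led by Cdh5 at -1.04 (SE 0.08, adjusted p = 7.78e-05). A dimmer probe set of Cdh5 gave -0.20 and was not called. Of 6 fibroblast markers 4 were higher (sums of 23757 to 35806 in knockout, against 18591 to 21926 in wild type), and Col1a1 changed by 0.96 (SE 0.16, adjusted p = 0.00265, with 0.47 and no call by a dimmer probe set). Without knockout array 2 or wild type array 1 or 2 only 2 of the 6 were called. Of 5 satellite cell and myoblast markers 2 were higher, Myf5 by 0.52 (SE 0.10, adjusted p = 0.00636) and Cdh15 by 0.45 (SE 0.09, adjusted p = 0.00711). Of the smooth muscle and pericyte list 1 of 5 was higher and 2 lower, of the adipocyte list 1 of 3 higher and 1 lower, of the Schwann cell and red blood cell lists 1 of 3 each lower (0 for red blood cells without knockout array 2 or wild type array 1 or 3), and of 5 T cell markers none was called by limma (0 at an unadjusted p under 0.05). The part of these cells in the changes of Asns, Slc7a5 and Slc3a2 was not tested.

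**Figure D4:**
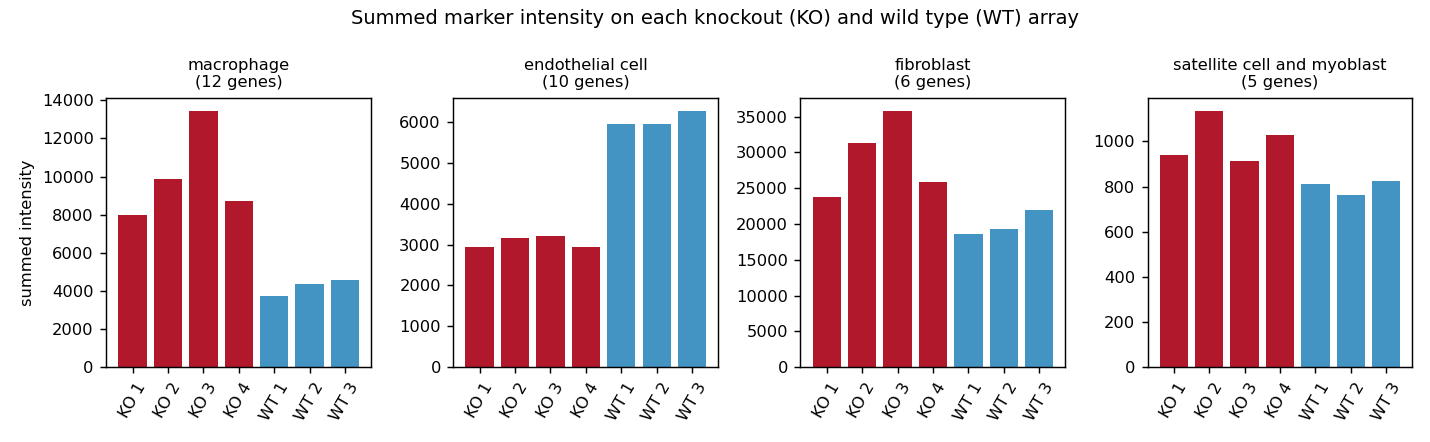
Summed intensity of the marker genes of 4 cell types on each knockout array (KO, red, left) and wild type array (WT, blue, right). Macrophage and fibroblast sums are higher and endothelial sums lower on all knockout arrays, with knockout array 3 the highest in macrophage markers at 13452 units.

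The genes whose levels followed the brighter Asns probe set most closely over the 7 arrays were Tnip2 (Pearson r = 0.993), Frmd6 (0.993), Mnd1 (0.992), Sem1 (0.989) and Rad1 (0.989). They were picked as the 5 highest r of all genes by their brightest probe set. The difference between genotypes enters r, so a gene that differs between them in the same direction has a raised r, and it is a description only. Each was higher in knockout by 0.31 to 0.43 log2 units, less than Asns, with knockout arrays 2 and 3 above 1 and 4 and wild type array 3 lowest in all 5.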

How the data were processed

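Soleus RNA was labelled as biotinylated cRNA and hybridised to 1 array a sample, per the labels' protocols. The authors deposited 1 intensity per probe set and array on a linear scale, made with RMA per the submitters' processing notes, with no software version stated there. The table held 0 columns of other samples. Of 22690 probe sets, 64 controls were left out. Of the remainder, 20380 had 1 gene symbol, 691 several and 1555 none, and genes were named only from the first kind. Groups came from the sample titles. Nothing says that the arrays came from separate animals, so the p-values rest on a spread between samples that may be technical. Precision is limited by the number of arrays.

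Intensities were taken to log2(value + 1), and knockout was compared with wild type in R 4.3.3 with limma 3.58.1, by two-sided moderated tests (eBayes after lmFit) with 1 row per probe set, with Benjamini-Hochberg adjustment over 22626 probe sets and calls at an adjusted p under 0.05. A positive log2 fold change means higher in knockout. No low-value filter was used, so all 10 probe sets of the 9 genes were tested. The members, the 6 related gene lists and the 10 marker lists were chosen with earlier results of these data known; Sesn2 stands in 2 lists. Lists are given as counts and medians without a test. List genes without a probe set of 1 symbol were not analysed here. Named from each list were up to 3 genes in each direction with the smallest p among those called, or the 2 smallest p where none was. Genes said to be named after their values were seen lie outside that rule, as do genes named only for a call by a dimmer probe set. Knockout and wild type arrays with the same replicate number did not deviate together (Pearson r = 0.05, -0.10 and 0.01 for numbers 1 to 3), so the fit has no pairing. On simulated data with 22626 probe sets, 200 of them changed, the test recovered 93.7% of log2 changes of 1 and 60.0% of those of 0.5, with 4.35% false calls. The simulated noise was independent between probe sets, and far fewer were changed than the 28.6% called in the real arrays. These shares may therefore differ in the real comparison. Alternatives were other pseudocounts, normalizations, units, variance priors, left-out arrays and a replicate block.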

Additional observations from a re-analysis of the deposited data

Results flagged for a closer look

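An array stood apart from the other 3 of its group, by its gap over the range of the group's log2 values, in 5 of 71 knockout groups examined, where chance gives about 1 in 20. Among the carriers this was Slc3a2, where knockout array 1 measured 504 units and the others 580 to 595 (gap over range 0.838). Without that array the log2 fold change of Slc3a2 was 0.35 (adjusted p = 0.0039). Mthfd2 was low on knockout array 4, at 508 against 671 to 704 units on the others (0.855). Knockout array 3 was high for Col1a1, at 996 against 616 to 666 units (0.835), and for Esam, at 479 against 408 to 419 units (0.841). Myl3 was high on knockout array 1, at 39302 against 35507 to 36089 units (0.84).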

How the results depend on the processing

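The calls of Asns (brighter probe set) and Slc7a5 held under every alternative run, with log2 fold changes of 1.24 to 1.78 and 1.01 to 1.24, and none of the 9 genes was called lower under any. Between 3 and 5 of the 10 probe sets were called, all higher. Fewer than 10 were tested with 1 row per gene (9 genes, 4 called) and among probe sets above the median level (3 called). Slc3a2 lost its call under a replicate block (0.28, adjusted p = 0.078) and without wild type array 2 (0.26, 0.0628). Slc38a1 gained one with array medians set equal (0.61, 0.0453), quantile normalization (0.60, 0.0492), 1 row per gene by brightest (0.60, 0.0475) or mean (0.60, 0.0463) probe set, and without knockout array 1 (0.70, 0.0396) or 2 (0.73, 0.0242); the causes were not tested. Under the block Slc1a4 (0.73, 0.0503) and Gfpt1 (0.29, 0.0895) also lost their calls, and 5 of the 12 fibre markers were called, against 9 without. Gfpt1 also lost its call with pseudocount 16 (0.20, 0.0506), and with the mean of probe sets Gfpt1 (0.15, 0.0733), Psat1 (0.37, 0.0503) and Slc6a6 (-0.18, 0.0716) did. With a replicate block 3 of the 10 were called and 5060 of all probe sets, against 6477 without. With 1 row per gene 4082 genes (brightest probe set) or 4112 (mean) were called of 12393, fewer rows being tested. Leaving out single arrays gave 4878 to 6224 probe sets. Slc1a5, near 0, reversed to -0.046 with the replicate block (6 or 7 arrays) and lay between -0.060 and 0.13 without single arrays, below 0 without knockout array 2 or 4 or wild type array 1 or 2. Likewise Slc7a8 lay between -0.018 and 0.056 (below 0 without knockout array 3) and Slc7a4 between -0.0050 and 0.17 (below 0 without wild type array 3). In the lists, 1 SLC3 or SLC7 gene was called with quantile normalization (0 to 1 without single arrays). Among probe sets above the median level, where fewer were measured, 3 SLC38 and SLC1 genes were called. Without single arrays, 1 to 2 SLC6 or SLC43 genes were called. A block with all 7 arrays gave the same values as with 6, since knockout array 4 has no partner.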
